A study of Saccharomyces cerevisiae with 16 samples.

Results

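Of 16 arrays in all, 6 are described here, those of the anaerobic series of the prototrophic laboratory strain CEN.PK113-7D of baker's yeast sampled at 0, 4.35, 10.38, 16.88, 26.52 and 35.67 h. They were split by time into 3 arrays from 0 to 10.38 h, called the early arrays, and 3 arrays from 16.88 to 35.67 h, called the later arrays. The samples were chosen by the measured levels of genes for scavenging poor nitrogen sources, which read much higher on the 2 following anaerobic arrays, at 42.85 and 50.85 h. The strain was the same throughout, and the labels name no alteration and no added agent. Cells grew on mineral salts medium in which glucose limited growth at the start, after which the glucose supplied was raised linearly until ammonia became limiting. The labelled glucose concentrations were 1, 4.87 and 10.31 g/L on the early arrays and 16.19, 24.86 and 33.1 g/L on the later ones, and 39.56 and 46.75 g/L on the 2 that followed. The 8 aerobic arrays, from 0 to 53.95 h and from 1 to 60.34 g/L, served for comparison, with 0, 4.1 and 6.85 h as their early group and 14.5 and 27.25 h as their later group. Each time point is 1 array. Nothing in the labels ties the arrays to different cultures, so the spread within a group is that between successive samples, and p-values measure no more than this. The labels also do not say when oxygen was removed, and within this series time without oxygen, glucose supply and sampling order cannot be told apart.

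Baker's yeast senses oxygen largely through heme and sterols, whose synthesis needs molecular oxygen. When heme is present the activator Hap1 drives respiratory genes and the gene of the repressor Rox1, which shuts off hypoxic genes. When heme and sterols run short, that repression is lifted, the activator Upc2 turns on sterol uptake genes, and the cell wall is rebuilt with the DAN, TIR and PAU mannoproteins. Cells without oxygen need sterols and unsaturated fatty acids from outside, and respiration gives way to fermentation.

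Each value is a log2 intensity, so 1 unit is a factor of 2 in probe signal, and levels of different genes are not comparable because their probes differ. The median over all genes lay between 10.80 and 10.98 on the 8 anaerobic arrays and between 11.36 and 11.53 on the 8 aerobic ones. Whether both series were normalized together is not given in the labels, so levels set across the series carry that doubt. The anaerobic 0 h array stood apart. Across genes it correlated at r = 0.917 with the aerobic 0 h array and at 0.882 to 0.915 with the other anaerobic arrays, whereas the arrays at 10.38 and 16.88 h correlated at 0.991. Results are therefore given with and without 0 h. The labelled condition could be read in ANB1, an oxygen-repressed gene. It read between 7.70 and 14.68 on the 6 anaerobic arrays and between 2.97 and 3.75 on the 8 aerobic ones, under the level of 4 units that was taken as the floor of measurement.

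The steps differed in time between genes. By 10.38 h DAN1, TIR1, TIR3 and ANB1 had covered 72.2% to 82.7% of the distance from 4.35 to 35.67 h, while TIR4 had covered 30.9% and PAU5 11.4%. The comparison of later with early arrays therefore set the later arrays against early ones that lay apart from each other in these genes. In a limma fit to the 8 anaerobic arrays (3 groups, 5 residual degrees of freedom), 0 of 5147 tested genes, or 0%, passed a Benjamini-Hochberg adjusted p of 0.05, and 484 genes, or 9.4%, had an unadjusted p under 0.05. Without the 0 h array 0 of 5141 genes passed and 1022, or 19.9%, had an unadjusted p under 0.05. Without the 10.38 h array 70 genes passed, 42 higher and 28 lower. As a plainer description, 345 genes, or 6.7%, had 3 later values all above their 3 early values, and 315 genes, or 6.12%, had them all below. With 0 h left out these became 1107 genes, or 21.5%, and 764 genes, or 14.8%. Counts of this kind are set against these shares of all genes below, and no gene of any list passed the adjusted test between later and early arrays.

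A fit of a straight line over time to the 6 arrays, tried as an alternative, called 27 of 5133 genes (0.526%), of which 12 rose (0.234%) and 15 fell (0.292%). The glucose concentration was raised almost linearly with time, so a line against it is nearly the same fit. It called the same 27 and adds no separate evidence. Of the 27, 20 were also called without 0 h. There the line over time called 50 genes in all (0.976%), 33 of which rose (0.644%) and 17 fell (0.332%). The call count depended on single arrays. It was 0 without the array at 4.35, 16.88, 26.52 or 35.67 h and 3 without 10.38 h. The adjusted p of the 27 genes lay between 0.0353 and 0.0492 in this fit, between 0.0271 and 0.294 with 1 of the 6 arrays left out, and between 0.00807 and 0.957 over the 17 other settings of the group comparison. Slopes are given per 10 h, and rose or fell is used below only of genes that this limma slope called or, for CWP1 after 35.67 h, of a called group difference.

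Genes of the DAN, TIR and PAU cell wall mannoproteins were separate in 1 direction only. The list named 30 genes, of which 19 were on the array and 18 were tested, and 17 of the 18 read at least 4 units on all 3 early arrays. Of the 18, 12 had all later values above all early ones and 0 had them below, against 6.7% and 6.12% of all genes. The 12 include the marker TIR4, which was picked with its values known. The list's median difference, later minus early, was 2.70 log2 units, while that of all tested genes was 0.00. Without 0 h, 15 genes were higher and 0 lower, against 21.5% and 14.8% of all genes, with a median of 2.89. Of the 18, 9 lie on probe sets shared with near-identical relatives, so their signals cannot be assigned to single PAU genes.

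Within that list DAN1, TIR1 and TIR3 were early. DAN1, a cell wall mannoprotein linked to sterol uptake, read 10.06, 9.0 and 14.53 on the early arrays and 15.21, 15.42 and 15.68 on the later ones. The 10.38 h array thus lay with the later ones, and 82.7% of the distance from 4.35 to 35.67 h had been covered by then. TIR1, a serine- and alanine-rich mannoprotein of cold-shocked and anaerobic cells, read 11.92, 11.21 and 15.20 early and 15.70, 15.98 and 16.27 later. Its share covered by 10.38 h was 78.7%. TIR3, of the same family, read 10.38, 10.34 and 14.33 early and 15.25, 15.69 and 15.86 later, with 72.2% covered. None of the 3 overlapped between groups, but the 10.38 h value was nearer to the later arrays in each. On the aerobic arrays DAN1 read 1.96 to 2.05 and TIR1 3.35 to 3.49, both under the floor, and TIR3 read 8.64 to 10.01.

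TIR2 and TIR4 followed later. TIR2 read 9.69, 9.90 and 12.50 early and 14.16, 14.81 and 15.05 later, a difference of 3.98 ± 0.69 (SE of the fit, 3 against 3 arrays; limma adjusted p = 0.252). Its 10.38 h value lay about midway, at 50.5% of the distance. TIR4, given without a test because it was picked as a marker of this window, read 11.14, 10.14 and 11.90 early and 14.89, 15.61 and 15.84 later. The step fell between 10.38 and 16.88 h, the border of the 2 groups, and only 30.9% of the distance had been covered at 10.38 h. On the 8 aerobic arrays TIR4 read between 5.28 and 7.51, below every anaerobic array.

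The PAU genes, the seripauperins, are a subtelomeric family of small cell wall proteins of fermenting yeast, and DAN4 is a related mannoprotein. PAU5, whose probe set is its own, read 10.74, 8.83 and 9.57 early and 11.28, 13.65 and 15.36 later. At 10.38 h it had covered 11.4% of the distance from 4.35 to 35.67 h, and the later values were still well apart from each other. DAN4 read 10.93, 9.98 and 10.49 early and 11.19, 12.84 and 14.28 later, with 11.9% covered at 10.38 h. PAU24, on a shared probe set, read 12.07, 10.15 and 9.80 early and 12.60, 14.60 and 15.87 later. PAU3, also shared, read 10.16, 8.03 and 3.55 early and 7.40, 11.32 and 13.86 later, so that the groups overlapped, with 0 h and without it. In these 4 genes the 0 h array read above the 4.35 h array, and the lowest value of the window came at 4.35 or 10.38 h.

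Leaving out 0 h, the slope over the remaining 5 arrays called 8 of the 18 mannoprotein genes, all of which rose, against 0.644% of all genes. PAU5 rose by 2.18 per 10 h (limma adjusted p = 0.00179) and DAN4 by 1.41 (limma adjusted p = 0.00808). The other 6 were PAU2, PAU7, PAU8, PAU9, PAU14 and PAU24, with slopes from 0.62 for PAU14 to 2.06 for PAU24, all on shared probe sets. PAU2 changed from early to later arrays by 3.23 aerobically beside an anaerobic 2.71. With values under 4 set to 4 these 2 changes differed by -0.01. PAU7, PAU8, PAU9, PAU14 and PAU24 changed by -0.57 to 0.45 aerobically, beside 1.06 to 3.68. With 0 h in the fit, 0 of the 18 genes were called, against 0.526% of all genes. PAU17 and PAU23 were flatter and overlapped between groups. PAU23 read 15.22 to 15.41 early and 15.28 to 16.23 later. PAU17 read 11.21 to 11.84 early and 11.58 to 13.33 later. PAU21 stayed under 4 units on all 6 arrays and was not tested.

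**Figure D1:**
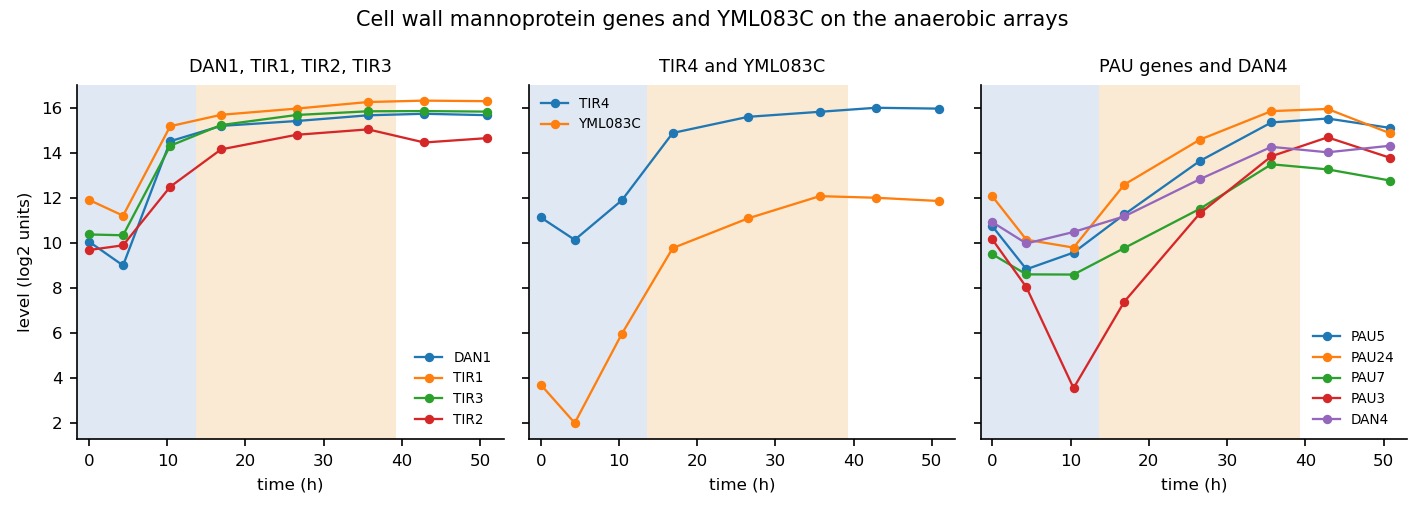
Levels in log2 units of mannoprotein genes and of YML083C, an uncharacterized gene, on the 8 anaerobic arrays against time in hours, 1 point per array. The blue band covers the early arrays, the orange band the later ones, and the 2 last points follow the window. DAN1, TIR1 and TIR3 read above 14 from 10.38 h, TIR4 and YML083C from 16.88 h read well above their early values, and PAU5, PAU24, PAU7, PAU3 and DAN4 were higher at each step from 10.38 to 35.67 h.

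Genes of wall proteins typical of aerated cells gave no such picture. Of 10 tested, 1 gene (CIS3) was higher and 1 (CWP2) lower on all later arrays, against 6.7% and 6.12% of all genes. The list's median difference was 0.05. CWP2, a major wall mannoprotein of aerobic cells, read 16.07, 15.79 and 15.45 early and 15.06, 14.88 and 14.73 later, a lower value at every step. It fell with a slope of -0.38 ± 0.05 per 10 h (limma adjusted p = 0.0424). CWP1, another mannoprotein of aerobic walls, read 11.13, 10.58 and 10.78 early and 10.60, 10.22 and 10.41 later, overlapping.

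Several yeast proteins exist as pairs, one made with oxygen and the other without, and 5 such pairs were listed. Of the 5 hypoxic partners 4 had all later values above all early ones, against 6.7% of all genes. The 4 include the marker ANB1, which was picked with its values known. Of the 5 aerobic partners 3 had all later values below, against 6.12% of all genes. Without 0 h the counts were 5 of 5 and 3 of 5, against 21.5% and 14.8% of all genes. ANB1, the hypoxic form of translation factor eIF5A, was chosen as a marker and is described without a test. It read 7.70, 9.96 and 13.49 early and 13.94, 14.47 and 14.68 later, with 74.8% of the distance from 4.35 to 35.67 h covered by 10.38 h. Its aerobic partner HYP2 read 15.25, 15.09 and 14.95 early and 14.90, 14.56 and 14.68 later, a narrow difference of -0.39 ± 0.12 without overlap.

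AAC3, the anaerobic ADP/ATP carrier of the mitochondrial inner membrane, read 6.24, 10.02 and 11.79 early and 11.85, 12.13 and 12.40 later. The early values spread over more than 5 units, and the 10.38 h value nearly met the later ones. PET9, the main aerobic carrier, read 15.65, 15.25 and 15.29 early and 15.25, 14.96 and 14.64 later, with an overlap at 16.88 h. COX5B, the hypoxic form of cytochrome c oxidase subunit V, read 9.85, 7.70 and 10.26 early and 10.65, 11.38 and 10.87 later. COX5A, its aerobic form, read 15.20, 14.03 and 13.60 early and 13.66, 13.63 and 12.71 later. COX5B groups were apart, and those of COX5A overlapped.

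CYC1 encodes the main cytochrome c and was lower on every successive array. It read 15.29, 14.37 and 13.00 early, 12.79, 11.88 and 11.16 later, and 9.68 and 9.28 on the 2 arrays that followed, while the aerobic arrays read 14.33 to 15.38. It fell with a slope of -1.09 ± 0.12 per 10 h (limma adjusted p = 0.0367), and with one of -0.94 without 0 h (limma adjusted p = 0.0276). CYC7, the minor cytochrome c, read 11.26, 8.07 and 8.51 early and 9.03, 10.20 and 9.42 later. It overlapped only through 0 h, and the sign of its difference depended on which array was left out. HMG2, the HMG-CoA reductase that dominates without oxygen, read 12.10, 12.25 and 12.65 early and 12.83, 12.99 and 13.17 later. HMG1, the reductase that dominates with oxygen, read 14.02, 13.20 and 12.80 early and 12.31, 11.90 and 12.05 later. Both pairs of groups were apart, in opposite directions. In the aerobic series the hypoxic partners COX5B, CYC7 and HMG2 had later minus early changes of 3.78, 2.28 and 0.66. The anaerobic changes of these genes were 1.7, 0.27 and 0.66. ANB1 and AAC3 changed by -0.25 and -0.69 aerobically, with ANB1 and the later AAC3 values under the floor.

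**Figure D2:**
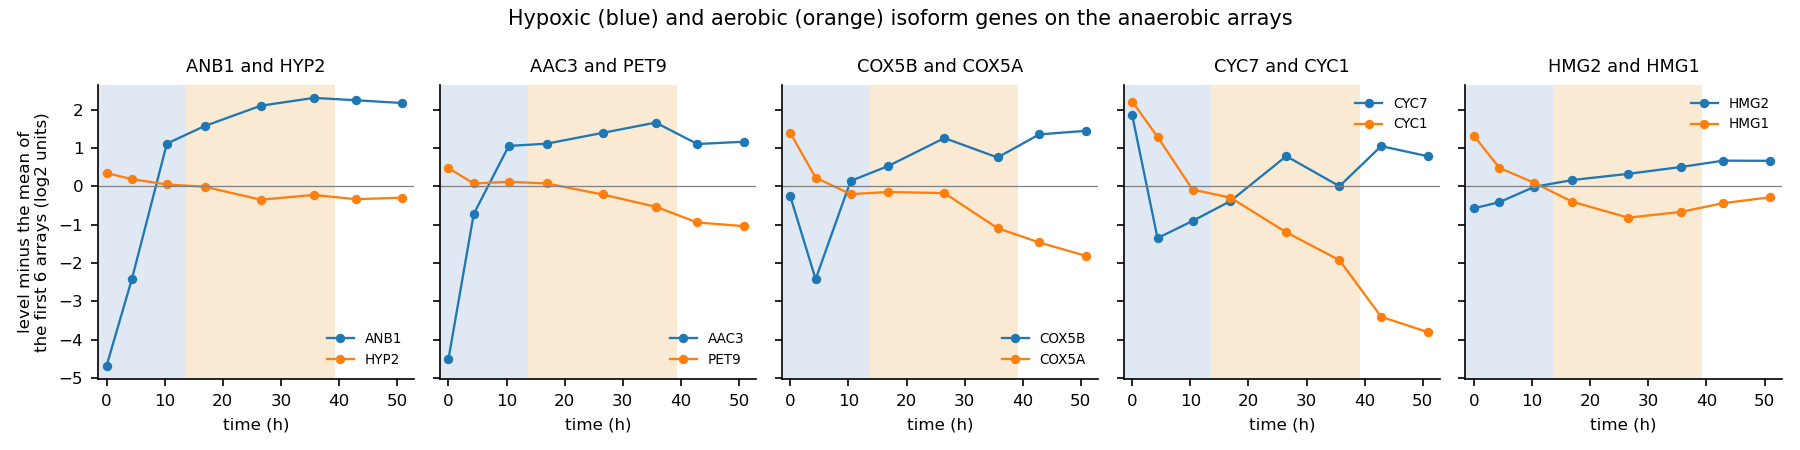
Each panel plots a hypoxic gene in blue and its aerobic partner in orange on the 8 anaerobic arrays against time in hours, 1 point per array. The vertical axis is the level minus that gene's own mean over the first 6 arrays, in log2 units, because levels of 2 genes are not comparable. Most of the spread of ANB1 and AAC3 lay within the early arrays, and CYC1 was lower on each successive array.

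Among 12 tested regulators of the oxygen and sterol response, 3 were higher on all later arrays (UPC2, SUT1 and ECM22) and 3 lower (ROX1, MOT3 and SUT2). The shares of all genes were 6.7% and 6.12%, and the list's median difference was -0.04. ROX1, the heme-dependent repressor of hypoxic genes, read 11.74, 11.35 and 9.61 early and 9.23, 8.35 and 8.41 later. At 0 and 4.35 h it lay within the range of the 8 aerobic arrays, 11.09 to 12.15, and from 10.38 h below it. MOT3, a second repressor of anaerobic genes, read 10.68, 10.63 and 8.75 early and 8.33, 7.80 and 7.81 later, with its largest step also between 4.35 and 10.38 h. The differences, later minus early, were -2.24 ± 0.53 for ROX1 and -2.04 ± 0.50 for MOT3 (limma adjusted p = 0.268 for both). The largest step of DAN1, TIR1, TIR3 and ANB1 lay between 4.35 and 10.38 h too. At 0 and 4.35 h, however, DAN1, TIR1 and ANB1 already read above every aerobic array. Any link between these steps was not tested.

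UPC2 encodes the sterol-sensing activator of uptake genes and of the DAN and TIR genes. It read 9.56, 10.08 and 10.45 early and 11.14, 11.46 and 12.15 later, higher at each step, while the aerobic arrays read 8.17 to 9.35. It rose by 0.70 ± 0.06 per 10 h (limma adjusted p = 0.0353), and by 0.65 without 0 h (limma adjusted p = 0.0276). SUT1, which promotes sterol uptake, read 10.52, 11.01 and 11.78 early and 12.24, 12.36 and 12.63 later. HAP1, the heme-responsive activator, read 12.94, 12.45 and 12.58 early and 12.78, 12.95 and 13.18 later, with an overlap. HAP4, the limiting subunit of the activator of respiratory genes, read 13.35, 12.49 and 12.09 early and 12.20, 11.93 and 11.56 later, also overlapping.

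The genes for taking up and storing sterols separated as well. Of 7 tested, 5 were higher on all later arrays and 1 lower, with a median difference of 1.43, and the counts were the same without 0 h. Of all genes 6.7% were higher and 6.12% lower, and 21.5% and 14.8% without 0 h. DAN1 is in this list too. AUS1 and PDR11 encode the plasma membrane transporters that import sterol. AUS1 read 11.17, 11.52 and 13.09 early and 14.18, 14.97 and 15.16 later. PDR11 read 9.30, 8.75 and 10.61 early and 11.95, 12.84 and 13.23 later. Neither overlapped between groups, and on the aerobic arrays neither exceeded 10.98. Both rose with time, AUS1 by 1.21 ± 0.15 per 10 h (limma adjusted p = 0.0404) and PDR11 by 1.30 ± 0.17 (limma adjusted p = 0.0424). Without 0 h neither slope was called, at 1.12 for AUS1 (limma adjusted p = 0.0574) and 1.37 for PDR11 (limma adjusted p = 0.0518).

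The sterol esterification enzymes read in opposite directions. ARE1 read 10.51, 11.17 and 11.98 early and 12.38, 12.62 and 12.94 later. ARE2, the enzyme that makes most sterol ester in aerated cells, read 8.73, 7.56 and 6.52 early and 5.66, 5.22 and 5.17 later. Neither gene's groups overlapped, and the differences were 1.43 ± 0.34 and -2.25 ± 0.54 (limma adjusted p = 0.268 for both). PRY1, a secreted sterol-binding protein, read 14.49, 13.45 and 14.18 early and 15.12, 15.30 and 15.45 later. Its change in the aerobic series was 1.45, beside an anaerobic 1.25.

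In ergosterol synthesis 6 of 25 tested genes were higher and 1 lower on all later arrays, against 6.7% and 6.12% of all genes, with a median difference of 0.12. Without 0 h 11 were higher and 1 lower, against 21.5% and 14.8% of all genes, with a median of 0.23. ERG26, a demethylation enzyme, read 13.36, 13.08 and 14.02 early and 14.11, 14.46 and 14.31 later. NCP1, the reductase that feeds electrons to the oxygen-using steps, read 14.17, 14.15 and 14.45 early and 14.58, 14.62 and 14.69 later. ERG11, an oxygen-using demethylase, read between 15.41 and 15.82 on the 6 arrays, with overlap. ERG3, an oxygen-using desaturase, read between 14.69 and 15.14, also with overlap.

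In heme synthesis 3 of 9 tested genes were higher on all later arrays and 0 lower, against 6.7% and 6.12% of all genes. The 3 include the marker HEM13. HEM13, the oxygen-dependent coproporphyrinogen oxidase, was chosen as a marker and is given without a test. It read 11.78, 12.79 and 14.54 early and 14.89, 15.20 and 15.50 later, and its 0 h value lay within the aerobic range of 10.99 to 12.51. HEM14, the next enzyme, which also uses oxygen, read 10.52, 9.99 and 11.00 early and 11.23, 11.92 and 11.92 later. HEM1, which starts the pathway, stayed between 13.68 and 14.00 on all 6 arrays. HMX1, the heme-degrading oxygenase, read 11.56, 8.12 and 4.77 early and 4.75 to 4.78 on the later arrays. Its values from 10.38 h on lay flat a little above the floor of 4 and may be probe background.

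For fatty acids 2 of 10 tested genes were lower on all later arrays and 0 higher, against 6.12% and 6.7% of all genes. FAA1, the main acyl-CoA synthetase, read 14.30, 12.68 and 11.04 early and 10.11, 8.97 and 8.43 later, lower at each step. It fell by 1.58 ± 0.20 per 10 h (limma adjusted p = 0.0385). ELO1, which lengthens medium-chain acids, read 13.56, 13.23 and 12.68 early and 12.17, 12.19 and 12.03 later. OLE1, the only fatty acid desaturase and an oxygen user, read 15.78, 15.33 and 15.45 early and 15.60, 15.63 and 15.80 later, overlapping through 0 h.

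**Figure D3:**
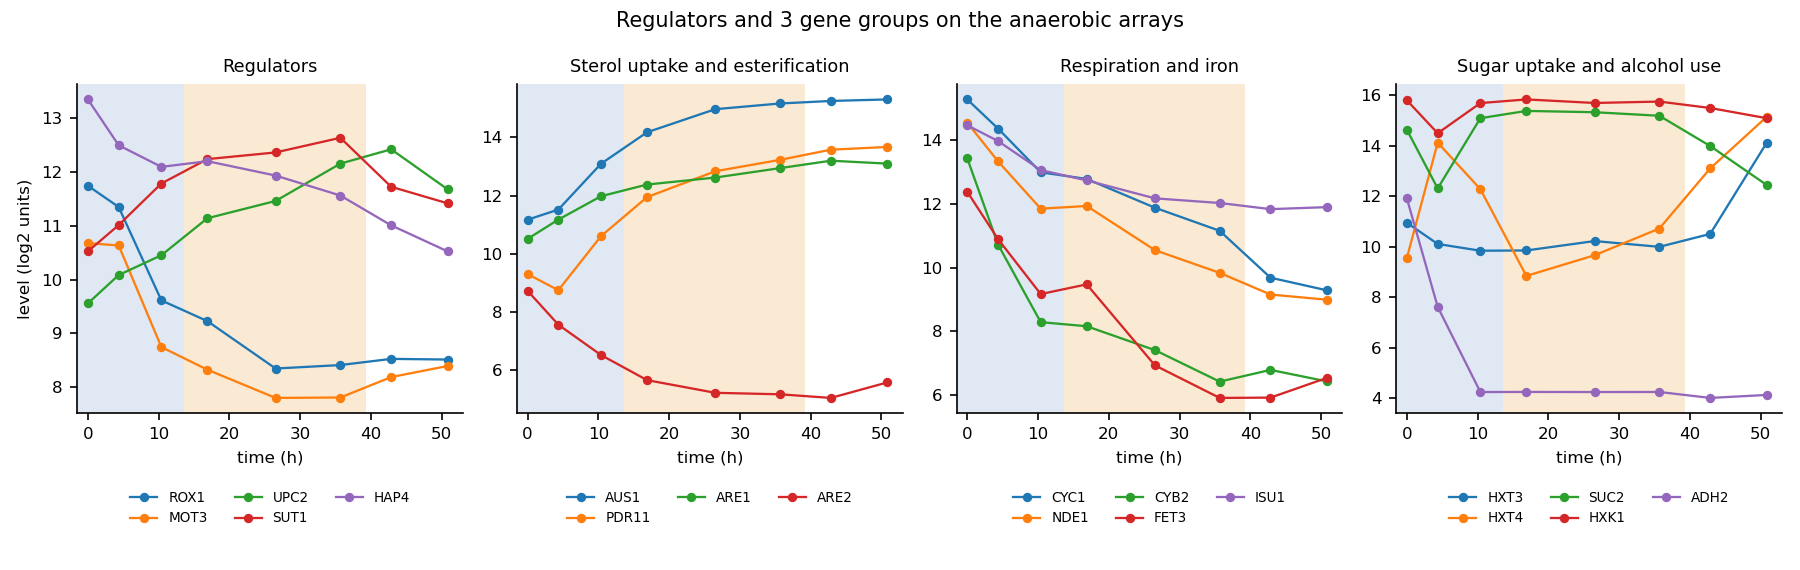
Levels in log2 units of 5 regulator genes, 4 sterol genes, 5 genes of respiration and iron use and 5 genes of sugar and alcohol use on the 8 anaerobic arrays against time in hours, 1 point per array. ROX1 and MOT3 read low from 10.38 h, UPC2 was higher at each step to 42.85 h, and HXT4 peaked at 4.35 h and again at 50.85 h.

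Of 22 further hypoxic and redox genes 8 were higher and 1 lower on all later arrays, against 6.7% and 6.12% of all genes. The list's median difference was 0.19. YSR3, a sphingoid base phosphatase, read 8.10, 9.33 and 11.79 early and 12.64, 13.13 and 13.62 later. OSM1 and FRD1 encode the fumarate reductases that reoxidize FADH2 without oxygen. OSM1 read 11.38, 11.25 and 11.53 early and 11.73, 11.98 and 11.99 later. FRD1 read 11.95, 12.15 and 12.88 early and 13.02, 12.99 and 13.08 later. FET4, a low-affinity iron transporter, read 7.45, 10.18 and 9.89 early and 10.29, 11.34 and 11.76 later. None of these 4 genes overlapped between groups. IZH2, a membrane protein linked to zinc and sterols, read 12.54, 12.41 and 12.69 early and 13.16, 14.04 and 14.08 later, and it rose by 0.53 ± 0.07 per 10 h (limma adjusted p = 0.0424). Changes from early to later arrays were larger in the aerobic series for FRD1, 1.07 beside 0.70, and FET4, 4.13 beside 1.96. The early aerobic mean of FET4 lay under the floor. IZH2 changed by 1.00 aerobically beside 1.22, YSR3 by 0.43 beside 3.39 and OSM1 by -0.19 beside 0.51.

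Respiratory chain genes were high at 0 h and lower afterwards. The mean over the list's 27 genes was 14.26 at 0 h, 12.83 at 4.35 h and 12.46 at 10.38 h, and 12.65, 12.43 and 11.91 on the later arrays, while the aerobic means lay between 14.13 and 14.53. Only 2 of 27 genes, CYC1 and CYB2, had all later values below all early ones, close to the 6.12% of all genes, and the median difference was -0.71. Without 10.38 h 15 genes were lower, but the share of all genes in that setting was not counted, so no reading is drawn from it. Without 0 h 3 were lower and 2 higher, against 14.8% and 21.5% of all genes, with a median of -0.20. CYB2, a lactate dehydrogenase that feeds cytochrome c, read 13.44, 10.72 and 8.28 early and 8.15, 7.40 and 6.41 later. NDE1, the external NADH dehydrogenase, read 14.56, 13.34 and 11.85 early and 11.94, 10.55 and 9.83 later. It fell by 1.23 ± 0.14 per 10 h (limma adjusted p = 0.0367). None of 17 ATP synthase genes and none of 13 tricarboxylic acid cycle genes was separate in either direction, with medians of -0.26 and -0.09.

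FET3 and ISU1, 2 genes of iron handling, were called by the slope, in which 0.292% of all genes fell. They were put together after the calls were seen. FET3, the multicopper oxidase of high-affinity iron uptake, which needs oxygen to work, read 12.39, 10.89 and 9.17 early and 9.47, 6.92 and 5.90 later. It fell by 1.73 ± 0.17 per 10 h (limma adjusted p = 0.0353) and the groups overlapped between 10.38 and 16.88 h. ISU1, the scaffold on which iron-sulfur clusters are built, read 14.48, 13.98 and 13.07 early and 12.74, 12.18 and 12.03 later, and fell by 0.69 ± 0.10 per 10 h (limma adjusted p = 0.0447, and 0.0571 without 0 h). Across 20 tested genes of the iron regulon 1 was higher and 0 lower on all later arrays, against 6.7% and 6.12% of all genes. The list's median difference was -0.54.

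Of the genes for sugar uptake and use, HXT1, the low-affinity glucose transporter, read 2.00 to 2.02 on all 6 arrays, under the floor, and was not tested within the anaerobic series. HXT3, another low-affinity transporter, read 10.95, 10.11 and 9.84 early, 9.85 to 10.22 later, and 10.50 and 14.12 on the 2 arrays that followed. HXT4 read 9.56, 14.12 and 12.28 early and 8.84, 9.66 and 10.72 later, with its peak at 4.35 h, and overlapped only with 0 h in. Of 6 tested genes of the low-affinity transporters and glucose-induced regulators 0 were separate in either direction, against 6.7% higher and 6.12% lower of all genes. Without 0 h 2 of the 6 were lower, against 14.8% of all genes. SUC2, the glucose-repressed invertase, read 14.62, 12.31 and 15.09 early and 15.37, 15.32 and 15.18 later, and 13.98 and 12.44 after the window. HXK1, a glucose-repressed hexokinase, read 15.79, 14.49 and 15.68 early and 15.83, 15.69 and 15.74 later. ADH2, the alcohol dehydrogenase that consumes ethanol, read 11.91, 7.62 and 4.25 early and 4.25 on each later array. Values of 4.25, flat and just above the floor of 4, may be probe background. The array at 4.35 h thus stood out for SUC2 and HXK1, which read lower there than on the other 5 arrays, and for HXT4, which read higher there.

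Some lists separated far more with 0 h left out. Of 18 trehalose and glycogen genes, reserve carbohydrate metabolism, 2 were higher on all later arrays with 0 h in and 16 without it, with medians of 0.44 and 1.04. The mean level of that list was 12.04 at 0 h, 9.79 at 4.35 h, 11.12 at 10.38 h and 11.54, 11.61 and 11.69 later, so the 0 h array lay above the later ones and the 4.35 h array below all. Of 128 cytosolic ribosomal protein genes 3 were lower with 0 h in and 81 without it. Their medians were 0.01 and -0.12, a small difference on genes whose mean level lay between 14.71 and 15.15. Of 44 amino acid synthesis genes driven by Gcn4, 4 were lower with 0 h in and 23 without it, with medians of -0.07 and -0.16. The shares of all genes were larger too when 0 h was left out, going from 6.7% to 21.5% higher and from 6.12% to 14.8% lower. Of 78 nucleolar ribosome biogenesis genes 3 were lower with 0 h in and 15 without it, which was close to that shift of all genes. Leaving out 4.35 h instead of 0 h left 2 trehalose and glycogen genes higher, a setting in which the share of all genes was not counted.

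**Figure D4:**
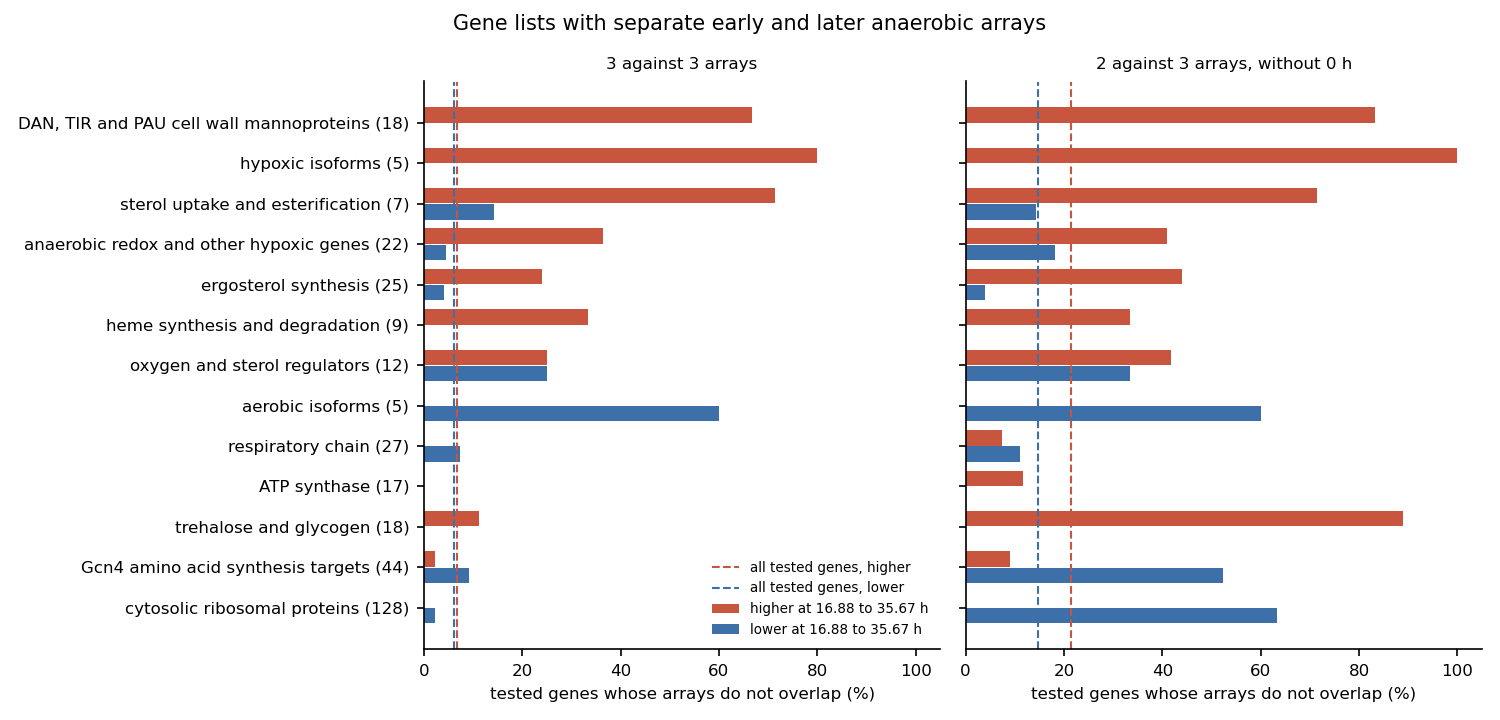
Share of each list's tested genes, with their number in brackets, whose later arrays lay all above (red) or all below (blue) their early arrays, in percent. The left panel sets 3 early against 3 later arrays and the right panel leaves out 0 h. Dashed lines mark the share among all tested genes, 6.7% and 6.12% on the left and 21.5% and 14.8% on the right. The mannoprotein, hypoxic isoform and sterol uptake lists stood far to the right of the lines in both panels, while the trehalose, Gcn4 and ribosomal protein lists did so on the right panel only.

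Some genes outside the lists had the largest differences and were picked after their values were seen. YML083C, which has no assigned function, read 3.7, 2.00 and 5.97 early and 9.77, 11.10 and 12.08 later, and 1.96 to 2.05 on the aerobic arrays. Its fitted difference was 7.10 ± 0.97 (limma adjusted p = 0.252), or 6.33 with early values under 4 set to 4. It reached 4 units only from 10.38 h on. It thus passed the filter through the arrays on which it was high, and its tests do not allow for that. HUG1, a small inhibitor of ribonucleotide reductase known from DNA damage, read 6.88, 4.12 and 8.09 early and 10.19, 12.26 and 13.31 later. HES1, a sterol-binding protein of the Osh family, read 8.02, 7.38 and 11.45 early and 12.41, 13.86 and 13.92 later. SET4, a relative of the chromatin protein Set3, read 7.48, 5.13 and 9.67 early and 11.17, 12.14 and 12.70 later. The groups of all 4 genes were apart, and on the aerobic arrays HUG1 did not exceed 4.77 or HES1 4.20.

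Further genes that the slope called were picked after their values were seen. ALE1, a lysophospholipid acyltransferase, read 11.60, 11.65 and 12.11 early and 12.32, 13.12 and 13.09 later, and rose by 0.48 ± 0.06 per 10 h (limma adjusted p = 0.0424, and 0.0518 without 0 h). ATF1, an alcohol acetyltransferase that makes acetate esters, read 10.79, 11.14 and 11.25 early and 11.55, 11.90 and 12.38 later, and rose by 0.42 ± 0.05 (limma adjusted p = 0.0367). EHT1, which makes ethyl esters of fatty acids, read 13.34, 12.72 and 12.46 early and 12.06, 11.62 and 11.49 later, and fell by 0.50 ± 0.07 (limma adjusted p = 0.0492). All 3 were separate between groups. PMT5, a protein O-mannosyltransferase, an enzyme class that mannosylates wall proteins, rose by 0.64 ± 0.08 (limma adjusted p = 0.0385, and 0.0512 without 0 h), from 9.99, 10.29 and 11.06 early to 11.58, 11.89 and 12.26 later.

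SNO1, which acts in vitamin B6 synthesis, had the steepest called slope downward. It read 10.28, 10.83 and 8.01 early and 6.33, 5.34 and 2.89 later, and fell by 2.18 ± 0.21 per 10 h (limma adjusted p = 0.0353), though its last value lay under the floor. SNZ1, its partner in that synthesis, read 14.02, 14.20 and 12.56 early and 12.10, 11.31 and 11.40 later, apart but not called. FHN1, a relative of the eisosome protein Nce102, read 9.40, 8.83 and 10.29 early and 11.15, 13.00 and 13.43 later, and rose by 1.35 ± 0.14 per 10 h (limma adjusted p = 0.0367). ECM34, whose role is not established, read 6.12, 5.90 and 7.99 early and 8.98 to 10.41 later, and rose by 1.35 ± 0.17 (limma adjusted p = 0.0404, and 0.0550 without 0 h).

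The genes that set the end of the window are targets of nitrogen catabolite repression, which are shut while good nitrogen sources last. They are given without a test because their values chose the samples. The mean of the list's 39 genes was 11.85, 10.70 and 10.45 on the early arrays, 10.62, 10.83 and 10.80 on the later ones, and 12.57 and 12.59 on the 2 that followed. DAL80, a GATA factor of that system, read 8.54, 5.78 and 3.86 early and 4.09, 5.51 and 6.11 later, and 13.08 at 42.85 h, the first array outside. GAP1, the general amino acid permease, read 14.50, 12.19 and 12.13 early, 12.52, 12.85 and 12.66 later and 15.62 at 42.85 h. OPT2, a peptide transporter of that list, read 12.10, 10.84 and 9.04 early, 10.55, 11.90 and 12.01 later and 15.82 at 42.85 h. The 0 h array was thus higher than the other arrays of the window for all 3, and DAL80 and OPT2 were higher at each step from 10.38 to 35.67 h.

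The change between early and later arrays was set against that of the aerobic series in a fit to all 16 arrays with 9 residual degrees of freedom. It called 113 of 5213 genes (2.17%), 22 with the higher change in the anaerobic series (0.422%) and 91 with the lower (1.75%). The aerobic later arrays already had high nitrogen genes, with DAL80 at a mean of 14.71 against 4.79 on the aerobic early arrays, so the difference holds that aerobic shift as well. The 91 hold 15 of the 39 listed targets of nitrogen catabolite repression, whose values chose the samples. Single nitrogen genes are given without a test. DAL80 had a difference of -10.74, or -10.29 with values under 4 set to 4, beside an aerobic change of 9.91. OPT2 lay under the floor on all aerobic early arrays, and its difference with values under 4 set to 4 was -9.90. DAL1, for allantoin use, had a difference of -6.76, or -6.78 in that way. The 113 calls depended on single arrays too, with 36 genes called without the aerobic array at 27.25 h, 53 without the anaerobic one at 35.67 h and 1242 without the aerobic 0 h array.

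The called genes of this kind that lay higher in the anaerobic series included YML083C, TIR2 and SUT1. YML083C lay under the floor on every aerobic array, so that its difference of 7.07 ± 1.24 (limma adjusted p = 0.0135, highest 0.0757 over 18 alternatives) was 6.33 with values under 4 set to 4. It passed the filter only through anaerobic arrays on which it was high, which the test does not allow for. TIR2 differed by 3.76 ± 0.85 (limma adjusted p = 0.0453, highest 0.138), not called in 14 of 18 alternatives, with an aerobic change of 0.22 ± 0.64. SUT1 went opposite ways, from a mean of 11.11 to 12.41 anaerobically and from 9.63 to 8.63 aerobically, a difference of 2.30 ± 0.43 (limma adjusted p = 0.0198, highest 0.0821). YLR108C, a nuclear protein of unknown role, also went opposite ways, with -2.95 ± 0.52 and 1.07 ± 0.59 (limma adjusted p = 0.0243, highest 0.0978). It also fell with time in the anaerobic series, by 1.27 ± 0.15 per 10 h (limma adjusted p = 0.0367). TIR4 had a difference of 5.05, given without a test. ANB1 and DAN1 lay under the floor on all aerobic early and later arrays, and HEM13 had an aerobic change of 0.29 beside an anaerobic 2.16.

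**Figure D5:**
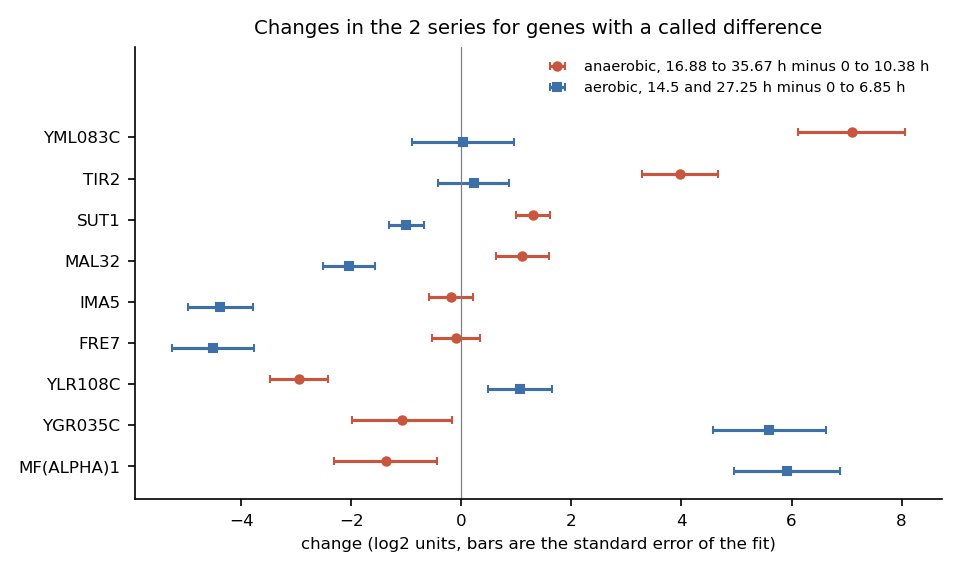
Change in log2 units from early to later arrays in the anaerobic (red circles) and aerobic (blue squares) series for 9 genes with a called difference, with bars for the standard error of each fit. YML083C and TIR2 had aerobic changes near 0, SUT1, MAL32 and YLR108C had opposite signs, and FRE7, IMA5, YGR035C and MF(ALPHA)1 had the larger change in the aerobic series. YML083C and the later aerobic arrays of FRE7 lay under the floor of 4 on the aerobic side.

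After the window TIR4, DAN1 and HEM13 read close to their 35.67 h level. TIR4 read 16.01 and 15.98 at 42.85 and 50.85 h against 15.84 at 35.67 h, and DAN1 read 15.75 and 15.69 against 15.68. HEM13 read 15.63 and 15.55. CYC1 went on lower, at 9.68 and 9.28. Between the 2 last and the 3 later arrays limma called 43 of 5147 genes (0.835%), 26 higher (0.505%) and 17 lower (0.33%). Nitrogen genes set this border, and the 26 hold some of them, DAL80, DAL1 and MEP2 included. The count is therefore not independent of how the samples were chosen. Of the genes described above as wall proteins, CWP1 was among those that fell, by 1.48 ± 0.20 (limma adjusted p = 0.0292, and 0.0527 to 0.44 without 1 of the 5 arrays compared), from a mean of 10.41 to 9.01 and 8.85.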

How the data were processed

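Total RNA was labelled with biotin and hybridized to Affymetrix yeast arrays, 1 array per sample, per the labels' protocols. GCRMA is the summary method that the submitters' processing notes name for the deposited log2 values. Its version is not given in the sources used here. That the scale is log2 follows from the spread of the values. Of 5716 probe sets 5498 had 1 gene symbol and 218 had none, and 12 symbols were updated through RefSeq names. The probe set with the highest mean stood for each of the 47 genes, of 5449, that had more than 1, and 115 genes lie on probe sets shared with related sequences. Genes with at least 4 log2 units on at least 3 anaerobic arrays were tested, which left 302 out.

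Groups followed the labelled times. The arrays of the anaerobic series were fitted as 3 groups with limma 3.58.1 in R 4.3.3 (lmFit, eBayes with an intensity trend), Benjamini-Hochberg adjusted over all tested genes, with a threshold of 0.05. The fit across both series used all 16 arrays in 7 group means, the aerobic array at 9.6 h being a group of its own. The slope is a limma fit on time over 6 arrays. The methods were tested on simulated data. A change of a group under 4 units is also given with values raised to 4. The number of arrays limits the precision.

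The samples, the marker genes ANB1, HEM13 and TIR4 and the gene lists were chosen with earlier results of these data known. Genes were named by a rule: the markers, both members of the isoform pairs, a fixed set of regulators and targets, the 10 largest called changes each way between early and later arrays and up to 4 called members of each list (no gene was called there), and the 5 largest called differences between series each way. All other genes named, the slope calls included, were picked after their values were seen. Alternatives were the arrays left out in turn, the filter, the normalization, the choice of probe set, the variance model and the slope. No promoter or other sequence was used here.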

Additional observations from a re-analysis of the deposited data

Results flagged for a closer look

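The genes below had a called difference between the anaerobic and the aerobic change from early to later arrays, a limma test of the difference itself (adjusted p over 5213 genes). YML083C had a difference of 7.07 (adjusted p = 0.0135, 0.00101 to 0.0757 over 18 alternatives) and lay under 4 log2 units on every aerobic array. It passed the filter through anaerobic arrays alone, those on which it was high. TIR2 had 3.76 (adjusted p = 0.0453, up to 0.138) and was not called in 14 of the 18. SUT1 had 2.30 (adjusted p = 0.0198, up to 0.0821) and MAL32, a maltase gene on a probe set shared with close relatives, 3.15 (adjusted p = 0.0259, up to 0.142).

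A further 5 genes of this kind follow. YLR108C had a difference of -4.02 (adjusted p = 0.0243, up to 0.0978). IMA5, an isomaltase gene, had 4.19 (adjusted p = 0.0202, up to 0.0698), with means of 6.21 and 6.01 anaerobically and 8.42 and 4.03 aerobically. FRE7, a metalloreductase gene, had 4.42 (adjusted p = 0.0447, up to 0.164) and was not called in 14 of the 18; both later aerobic arrays lay under 4 units, and with values raised to 4 the difference was at least 2.85. YGR035C, of unknown role, had -6.68 (adjusted p = 0.029, up to 0.155) and was not called in 9 of the 18. MF(ALPHA)1, the gene of the alpha mating pheromone, had -7.30 (adjusted p = 0.014, up to 0.0904), with means of 6.15 and 4.77 anaerobically and 5.79 and 11.71 aerobically. Its anaerobic early mean rests on the 0 h array, at 8.59. From 4.35 to 35.67 h it read 4.45 to 4.94, little above 4 units, and such flat values may be probe background.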

How the results depend on the processing

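The count of genes called between later and early arrays was 0, and it ranged from 0 to 70 with 1 anaerobic array left out, the 70 without 10.38 h. It was 9 in the fit of all 16 arrays and 1 each with a filter at 6 units, a second quantile normalization or centring on array medians. The slope on time gave 27, as did the slope on glucose, which is nearly the same fit. The 5 other settings that kept all 8 arrays or used the 6 alone gave 0. The slope's 27 calls ranged from 0 to 50 with 1 of the 6 arrays left out. The difference between series, 113 genes, was 1409 without both 0 h arrays and ranged from 36 to 1242 with 1 array left out.

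Of 1765 values for 93 named genes 1658 kept their direction and side of the threshold, 102 passed it and 5 turned sign, all of CYC7. None of the 93 was called in the main fit, so keeping the side of the threshold means staying uncalled. Many settings leave the difference itself unchanged, so its sign could not turn there. The tally is therefore no measure of robustness. The CYC7 difference of 0.27 was -0.02 for both slopes (-0.0185 on time and -0.0163 on glucose) and between -0.34 and 1.26 with 1 array left out. Of 162 values for 9 genes named for a difference between series, 58 lost the call and 0 turned sign. Of 264 list counts 36 moved by over 1.5 times. The causes were not tested. No paired analysis was possible because the labels carry times and no replicate numbers. The planned motif search in promoters was not run. With 1 array per time point, no single step is replicated.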
